A study of Mus musculus with 2 samples.

Results

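The kinesins are motor proteins that walk along microtubules or take them apart with energy from ATP, and most carry the symbol Kif. Genes were taken as kinesins when a probe of theirs that was not a control carried a name starting with Kif and a digit, which gave 36 of the 27790 genes on the arrays, read by 80 probes. Where a gene had several probes, the brightest carried its value. Probe positions are those given with the arrays, on the mouse build mm9. By their known roles the 36 genes were sorted into 12 mitotic kinesins, 13 transport kinesins and 11 others, which have roles in cilia or at microtubule ends, or no clear role.

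RNA came from 2 lines of B16F1, a murine melanoma cell line, and both express GFP. B16F1-GFP-M is the maternal line. B16F1-GFP-D is the dormant DMC-derived line, grown from disseminated melanoma cells that were sorted by their GFP from pooled organs of tumour-free control and immunised mice a year after challenge with the maternal cells. It is a single clone, so a difference from B16F1-GFP-M can belong to that clone, to its time in the host or to its culture, and these cannot be told apart. Both lines were grown in DMEM with foetal serum and antibiotics, and neither received a treatment. RNA of both lines was hybridised together on 2 Agilent 2-colour arrays of 1 slide with the dyes exchanged: B16F1-GFP-D was in Cy3 on array 1 and in Cy5 on array 2.

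Every ratio below is on the log2 scale with B16F1-GFP-D as numerator and B16F1-GFP-M as denominator, so a value of 1 is a 2-fold higher signal in B16F1-GFP-D. Levels are given per line and array as log2 of the background-corrected and normalised intensity. The labels name no separate cultures and do not say whether the arrays share RNA, so 1 replicate per line was counted and no test was made. The SD beside a mean is the spread between the 2 arrays, which holds dye and array error and is not read as variation between cultures. Over all arrays and dyes, 44.1 to 60.7% of spots were well above background and none was saturated. A gene was detected when its probe was well above background in the same line on both arrays, which held for 12540 genes, and their pooled SD between arrays was 0.15. A detected gene was called when both arrays put it past 2-fold with the same sign. In cultured cells measured in bulk, fewer cells in a state and less RNA per cell cannot be told apart.

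Cells need kinesins for distinct tasks. In mitosis, some kinesins push the spindle poles apart, some shorten microtubules at the chromosomes, and some organise the central spindle that guides the cut between the daughter cells; their genes are transcribed mainly in G2 and M phase. The transport kinesins carry vesicles, mitochondria, endosomes and melanosomes outwards along interphase microtubules and move cargo in cilia, and they are needed whether or not a cell divides. The comparison of the classes asked whether the kinesins as a family differed between the lines, or whether the difference followed their task.

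The 2 classes lay apart. On both arrays all 11 detected mitotic kinesins had ratios above 0, against 41.0% of all detected genes. Of the 11, 6 were called higher in B16F1-GFP-D, against 3.09% of all detected genes. None of the 9 detected transport kinesins was called in either direction, which for so few genes is near the background of 5.02% of all detected genes. The median ratio was 1.11 for the mitotic class (SD of the median between arrays 0.05), or 2.15-fold, and -0.04 for the transport class (SD 0.09), beside -0.01 over all detected genes. The mitotic median exceeded the transport median by 1.14 (SD 0.04), with 1.15 on array 1 and 1.09 on array 2. The lowest mitotic mean, 0.57 for Kif15, lay above the highest transport mean, 0.24 for Kif13b, and the classes did not overlap on either array. This holds with Kif2a among the other kinesins: it also acts in mitosis, and with a mean of -0.62 it lay below every detected transport kinesin, the lowest of which was Kif13a with -0.32. All 25 detected kinesins were well above background in both lines, so no member was detected through its higher line alone. The classes were written by role with earlier results of these data known, and genes are not replicates, so these medians describe the classes.

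**Figure D1:**
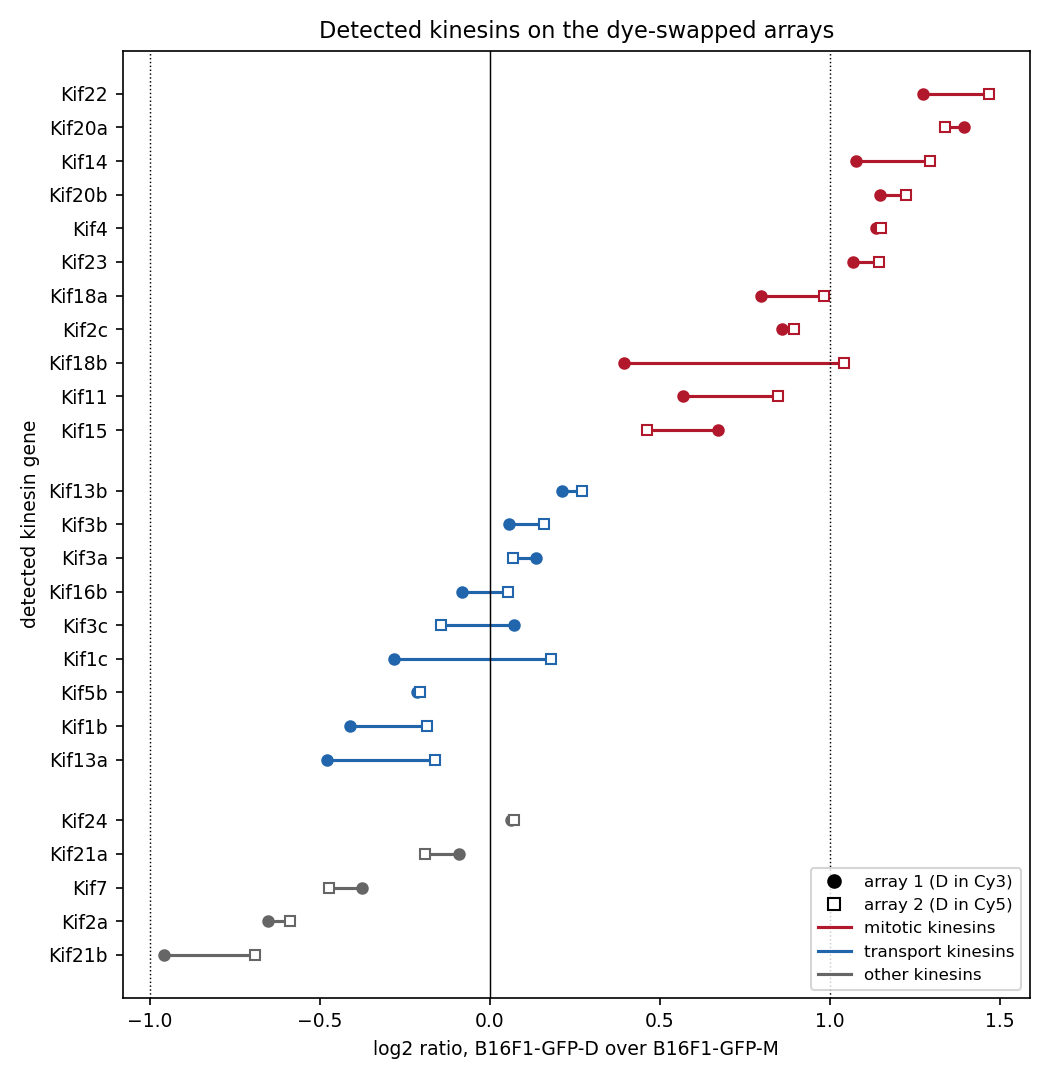
Log2 ratio between the lines (positive where B16F1-GFP-D is higher) for each of the 25 detected kinesins, with array 1 as filled circles and array 2 as open squares joined by a line; dotted lines mark 2-fold in either direction. All 11 mitotic kinesins lie to the right of every transport kinesin, and the widest gap between arrays is that of Kif18b.

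**Figure D2:**
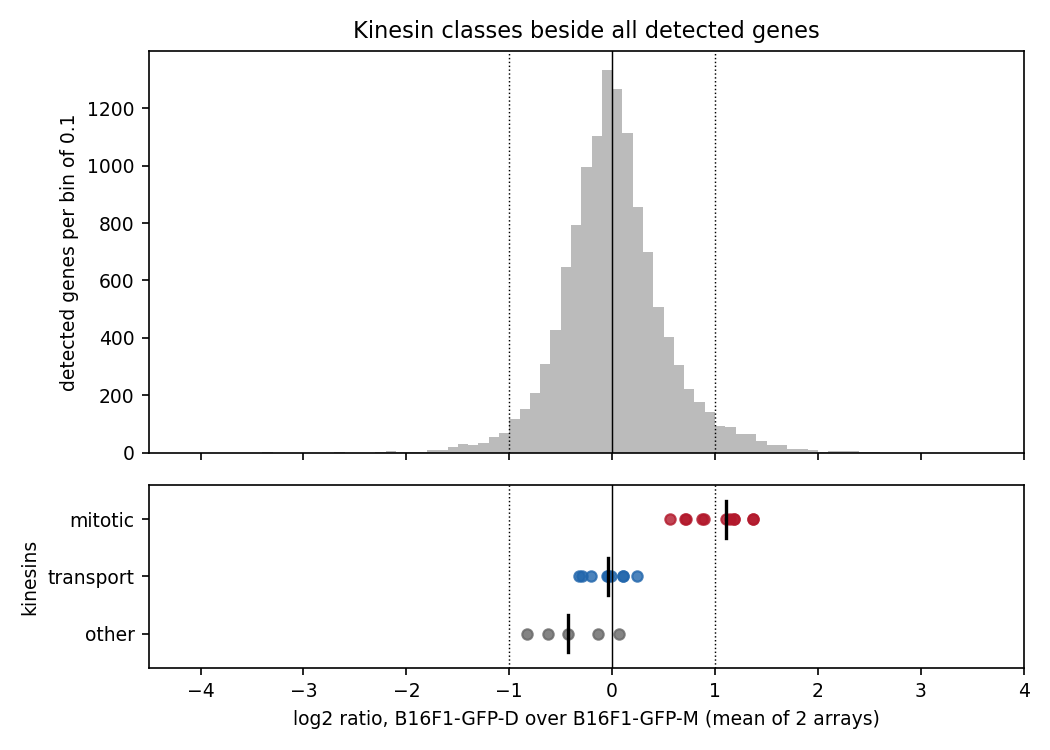
Number of detected genes per bin of 0.1 in the log2 ratio (12540 genes, upper panel) and the detected kinesins of each class on the same axis (lower panel), as means of the 2 arrays with black bars at the class medians. The medians are 1.11 for the mitotic, -0.04 for the transport and -0.42 for the other kinesins.

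The motors of the central spindle and of cytokinesis were among the called genes. Kif20a, a kinesin-6 that brings the chromosomal passenger complex to the central spindle, had levels of 12.14 and 12.06 in B16F1-GFP-D and of 10.74 and 10.72 in B16F1-GFP-M on arrays 1 and 2. The lines were thus well apart on both arrays, with a mean ratio of 1.37 (SD 0.04) or 2.58-fold. A second probe, which overlaps the first, gave a mean of 1.36. Kif20b, a related motor of cytokinesis, had levels of 8.77 and 9.12 in B16F1-GFP-D and of 7.63 and 7.90 in B16F1-GFP-M, a ratio of 1.19 (SD 0.05). Its 2 other probes were higher too, with means of 0.91 and 0.63. Kif23, the motor of centralspindlin, stood at 8.72 and 8.89 in B16F1-GFP-D and at 7.65 and 7.74 in B16F1-GFP-M. Its ratio of 1.11 (SD 0.05) was the smallest among the called members, and its second detected probe gave 1.10. Kif14, a kinesin-3 that acts with citron kinase at the midbody, had levels of 8.93 and 9.23 in B16F1-GFP-D and of 7.85 and 7.93 in B16F1-GFP-M. Its ratio was 1.19 (SD 0.15) on the brightest probe, while its other probe was not detected.

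The chromokinesins, which bind chromosome arms and push them towards the spindle equator, were both called higher. Kif22, read by a probe at 134171293 to 134171352 on chromosome 7 of mm9, had levels of 12.35 and 12.40 in B16F1-GFP-D and of 11.08 and 10.93 in B16F1-GFP-M. Under the main background correction, its mean ratio of 1.37 (SD 0.14), or 2.59-fold, was the largest of all kinesins. It was level with that of Kif20a within the spread between arrays, and 98.6% of detected genes lay below it. Kif4, which also works with Prc1 at the central spindle, was read by a probe at 97922126 to 97922185 on chromosome X of mm9. It had levels of 10.31 and 10.41 in B16F1-GFP-D and of 9.18 and 9.26 in B16F1-GFP-M. Its arrays differed least among the called members, with ratios of 1.14 and 1.15, and its second probe gave a mean of 0.96.

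The motors that build the bipolar spindle and those that shorten microtubules were higher in B16F1-GFP-D but missed the call. Kif11, the tetrameric kinesin-5 that pushes the poles apart and the target of the Eg5 inhibitors, had ratios of 0.57 and 0.85. Kif15, which helps Kif11 keep the spindle bipolar, had ratios of 0.67 and 0.46, the lowest mean of the class. A further Kif15 probe, which on both arrays was well above background in B16F1-GFP-D but not in B16F1-GFP-M, gave a mean of 0.50, or of 2.40 by the scanner software. The depolymerase Kif2c, which corrects wrong attachments of chromosomes, had ratios of 0.86 and 0.89. Kif18a, which damps the movements of chromosomes before anaphase, had 0.80 and 0.98. Its relative Kif18b, which shortens astral microtubules, had 0.39 on array 1 and 1.04 on array 2, and its SD of 0.46 was the largest among detected kinesins. The kinetochore depolymerase Kif2b was not detected in either line.

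How far these members stood from the call depended on how the background was taken. The main correction adds an offset of 50 to each intensity, and this shrinks the ratio of a dim spot. With the offset alone set to 0, Kif2c (1.36) and Kif18a (1.33) passed the call and Kif15 (1.26 and 0.88) did not, so that 8 of the 11 were called higher, against 5.06% of all detected genes. The scanner software's own log ratio differs in its background and dye corrections too. With it Kif2c had a mean of 1.54, Kif18a of 1.48 and Kif15 of 1.41, and 9 of the 11 were called higher, against 6.05% of all detected genes. Kif11 with 0.85 and Kif18b with 0.97 still missed the call. The bright members hardly moved: Kif22 had 1.40 and Kif20a 1.39. Kif22 was thus no longer the largest. With the offset of 0 the dimmer Kif20b (1.46) already exceeded Kif22 (1.38), and with the scanner ratio Kif20b had 1.57. Again no transport kinesin was called, against 10.8% of detected genes in either direction. With the scanner ratio the 11 mitotic kinesins spanned 0.85 to 1.57, and the class median was 1.41. When each gene was read as the median over all its probes, detected or not, only Kif20a, Kif22 and Kif4 were called, 3 members against 2.45% of detected genes. That median takes in undetected probes of Kif14 and Kif23, with means of 0.25 and 0.29. Kif20b lost its call as well, though all 3 of its probes were detected, with means of 1.19, 0.91 and 0.63. A threshold of 3-fold left no mitotic kinesin called, against 0.59% of detected genes. Each array alone called 6 members on array 1, against 2.85% of the genes detected there, and 7 on array 2, against 3.4%. Median centring without loess called none, against 0.359%. With that centring the median detected gene stood at -0.86 on array 1 and at 1.02 on array 2, and the classes overlapped on each array, though not in the mean of both.

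**Figure D3:**
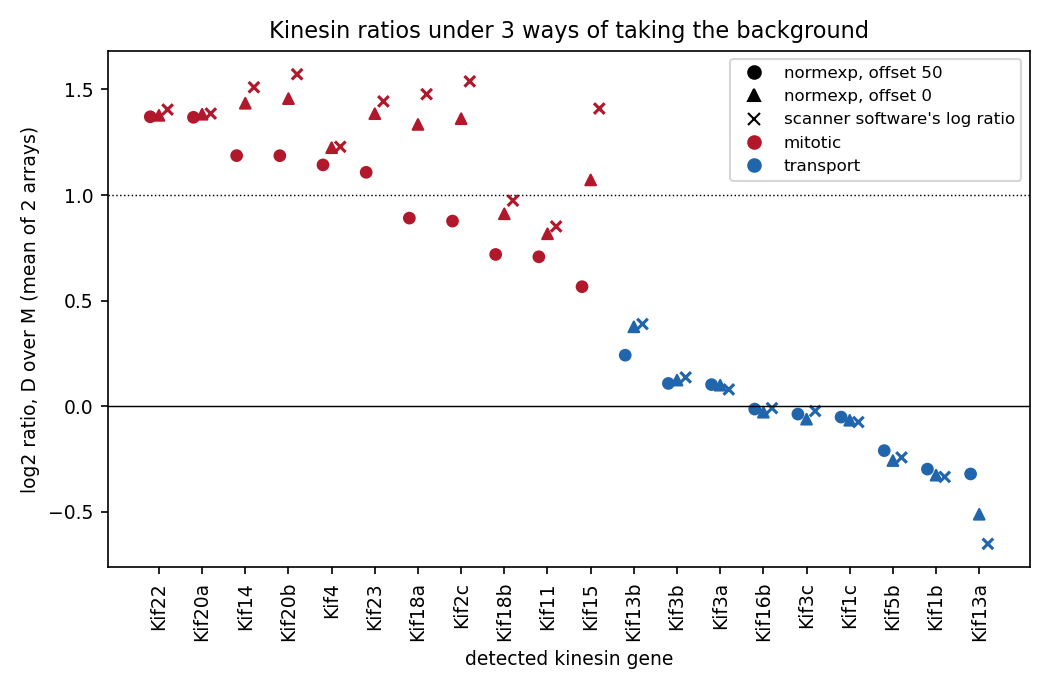
Mean log2 ratio over the 2 arrays (vertical axis) of each detected mitotic (red) and transport (blue) kinesin, taken with a normexp offset of 50 (circles), with an offset of 0 (triangles) and by the scanner software (crosses). The means of Kif2c, Kif18a and Kif15 lie above the dotted 2-fold line without the offset, and the transport kinesins stay below it.

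The other probes of the mitotic genes were read as a check that did not choose the value. Of their 12 other probes, 7 were detected. All 7 had ratios above 0 on both arrays, against 41.0% of all detected genes. Their means ran from 0.23 for a Kif11 probe to 1.36 for Kif20a. Only 1 of the 7 passed 2-fold on both arrays, the Kif20a probe that overlaps the brightest. Of the 12 detected other probes of the transport genes, 5 were higher and 4 lower on both arrays, and their means ran from -0.21 to 0.34.

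Most mitotic kinesins held near their start a short sequence known from promoters of mitotic genes. Genes of G2 and M phase often carry a cell cycle genes homology region, or CHR, near their transcription start, which the DREAM complex and the B-MYB and FOXM1 complexes bind through LIN54, often with CCAAT boxes bound by NF-Y upstream. Promoter windows of 300 bases, 250 before and 50 after the start, came from RefSeq on GRCm38.p6, and 31 of the 36 kinesins had one. Kif20a, Kif5a, Kif5b, Kif13b and Kif21b had none. Both strands were searched for TTTGAA, the CHR core, for its variant TTCGAA and for CCAAT, and matches that overlap were counted. Positions count the first base at the start as 0 and name the leftmost base of the match.

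The stretches below run from 60 bases before the start to 30 bases after it, 5′ to 3′ on the strand of the gene, with the CHR core in capitals (TTTGAA, or TTCAAA where it lies on the other strand). The 7 mitotic kinesins are all those with a core within 30 bases of the start, and they show how close to the start it sits.
Kif22, chr7:127042391-127042480, minus strand: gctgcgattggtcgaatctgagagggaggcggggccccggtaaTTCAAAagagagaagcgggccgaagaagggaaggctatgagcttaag
Kif11, chr19:37376322-37376411, plus strand: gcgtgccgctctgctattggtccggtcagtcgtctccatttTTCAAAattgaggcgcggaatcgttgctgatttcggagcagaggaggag
Kif15, chr9:122951021-122951110, plus strand: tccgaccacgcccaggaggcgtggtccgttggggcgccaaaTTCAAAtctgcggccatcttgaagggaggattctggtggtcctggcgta
Kif23, chr9:61946770-61946859, minus strand: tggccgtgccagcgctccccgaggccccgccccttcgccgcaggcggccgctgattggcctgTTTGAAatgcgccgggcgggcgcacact
Kif18b, chr11:102925095-102925184, minus strand: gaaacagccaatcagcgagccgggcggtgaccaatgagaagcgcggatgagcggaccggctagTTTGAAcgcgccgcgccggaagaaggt
Kif20b, chr19:34922298-34922387, plus strand: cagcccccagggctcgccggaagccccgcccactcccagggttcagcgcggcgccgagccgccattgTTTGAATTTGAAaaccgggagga
Kif4, chrX:100626005-100626094, plus strand: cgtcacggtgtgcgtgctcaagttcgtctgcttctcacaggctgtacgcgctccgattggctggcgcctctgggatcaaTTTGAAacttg

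The core lay just before the start in Kif22 (-17), Kif11 (-19) and Kif15 (-19), and just after it in Kif23 (2), Kif18b (3) and Kif4 (19). Kif20b held 2 copies back to back, at 7 and 13. In 5 of these genes the stretch also holds a CCAAT box before the core, on either strand, at -54 in Kif22, at -45 in Kif11, at -53 and -30 in Kif18b, at -7 in Kif23 and at -5 in Kif4. For contrast, 3 transport kinesins, chosen from those detected and not called, are shown over the same stretch, and none of their windows holds the core. Kif3a does hold a CCAAT box in the stretch, at -18 on the other strand, and Kif3b holds one further upstream, at -69.
Kif1c, chr11:70700488-70700577, plus strand: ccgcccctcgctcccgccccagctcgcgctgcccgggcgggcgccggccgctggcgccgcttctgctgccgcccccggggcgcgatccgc
Kif3a, chr11:53567309-53567398, plus strand: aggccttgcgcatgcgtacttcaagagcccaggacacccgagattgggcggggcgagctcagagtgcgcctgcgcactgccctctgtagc
Kif3b, chr2:153291356-153291445, plus strand: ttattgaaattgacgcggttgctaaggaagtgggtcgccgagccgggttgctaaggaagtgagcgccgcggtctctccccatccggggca

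Over the whole window, 9 of the 11 mitotic kinesins with an entry held TTTGAA, as Kif14 (-228) and Kif2c (-103) held it further upstream, while Kif18a and Kif2b did not. Of the 10 transport kinesins with an entry, only Kif1a held it, at -44 in 1 of its windows, and Kif1a was not detected. Among the other kinesins it was found in Kif26b and Kif27, neither of them detected, and Kif24, a centriole protein, held the variant TTCGAA at -26. The core stood in 17.9% of all windows, in 14.0% of the detected genes with an entry and in 23.2% of the genes called higher. A core within 30 bases of the start was found in 7 of the 11 mitotic and in none of the 10 transport kinesins, beside 2.71% of detected genes and 30 of the 280 genes called higher that had an entry. Among the partners, the core stood in 12 of the 19 spindle partners with an entry, 10 of them within 30 bases of the start. Of 10 tubulins with an entry it stood in 1 and in none near the start, and the detected tubulins had a median ratio of 1.19. The CCAAT box is common, with 37.4% of all windows holding one, and it stood in 7 mitotic and 3 transport kinesins. The motifs were chosen for their known place in promoters of mitotic genes, with the ratios known. The class was sorted by mitotic role, so the core in it is not separate support for the ratios. Of the 6 called mitotic kinesins, 5 had an entry, and all 5 held the core, as did the uncalled Kif11, Kif15, Kif18b and Kif2c. A match is a stretch of letters and says nothing of binding in these cells.

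**Figure D4:**
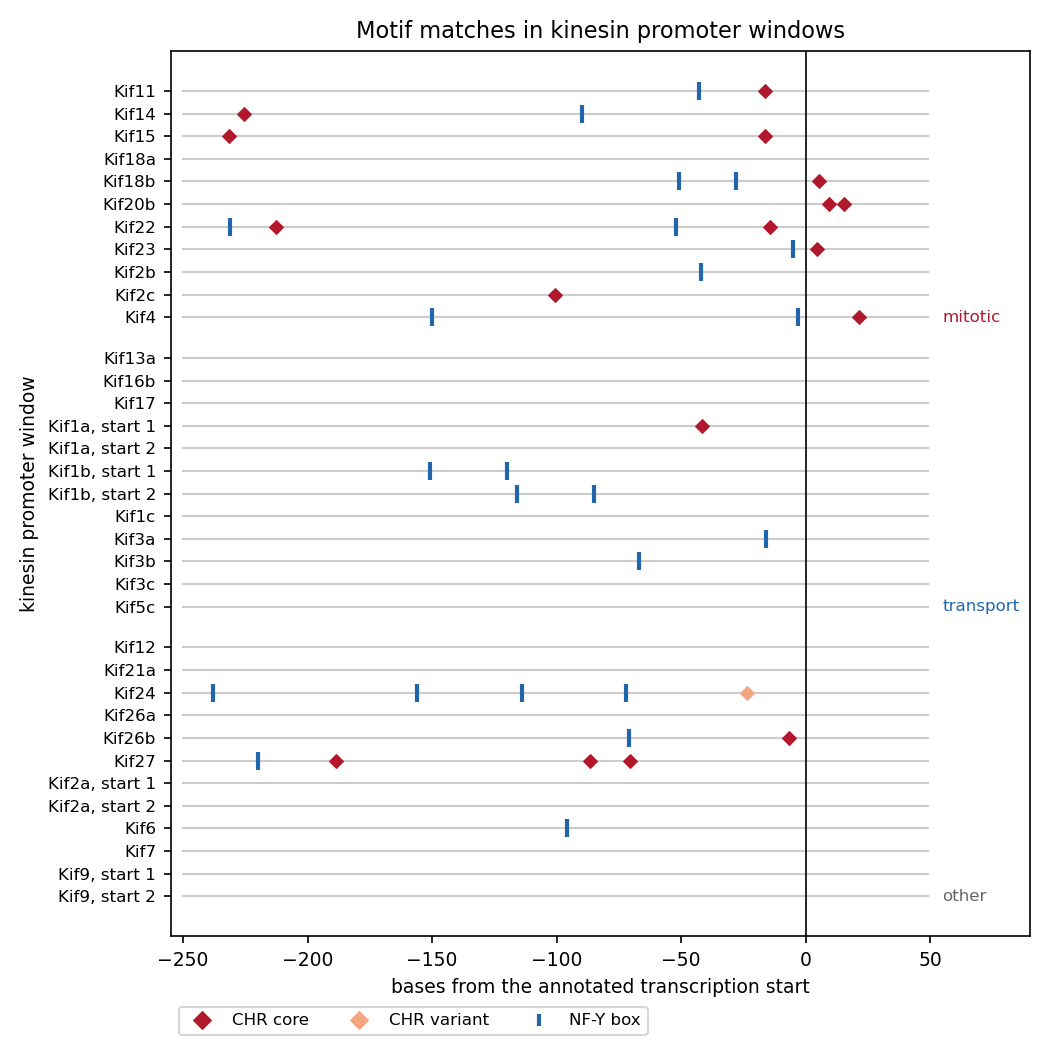
Positions of the CHR core (dark diamonds), its variant (light diamond) and the NF-Y box (bars) in bases from the annotated start, for every kinesin with a promoter window, on either strand and grouped by class. Cores gather around 0 in 7 mitotic rows, and the transport rows hold 1 core, in Kif1a.

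The genes whose products act on this element were also on the arrays. In a list of 11 regulators of mitotic genes, 10 were detected, with a median of 0.57, and 2 were called higher, against 3.09% of all detected genes. With an offset of 0, 4 were called higher, against 5.06% of all detected genes. With the scanner software's ratio 4 were called higher as well, against 6.05%. The median over each gene's probes brought the list's median to 0.32. Mybl2, which encodes B-MYB, had ratios of 1.14 and 1.32. Rbl1, which encodes the pocket protein p107, had 1.08 and 1.22. Foxm1 stood just under the call with 0.98 and 1.21. Among the shared MuvB subunits, Lin9 (0.62) and Lin54 (0.52) were higher on both arrays, while Lin37 (-0.45) and Lin52 (-0.53) were lower on both. The part of these regulators in the kinesin ratios was not tested.

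The transport kinesins were near an equal level in the lines. Kif5b, the ubiquitous heavy chain of conventional kinesin, had levels of 13.77 and 13.96 in B16F1-GFP-D and of 13.99 and 14.16 in B16F1-GFP-M, a ratio of -0.21 (SD 0.01). The difference was small and of the same sign on both arrays. Its relatives Kif5a and Kif5c, known from neurons, were not detected. The kinesin-2 motors Kif3a and Kif3b, which pair to carry cargo into cilia, had mean ratios of 0.10 and 0.11, and both were higher by little on each array. Kif3c, which pairs with Kif3a, had 0.07 on array 1 and -0.14 on array 2, so its sign was not settled, and the kinesin-2 motor Kif17 was not detected.

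Among the kinesin-3 carriers of vesicles and endosomes, Kif13b was slightly higher with 0.21 and 0.27. Kif13a, which moves recycling endosomes and, in melanocytes, the supply of melanosome proteins, was lower with -0.48 and -0.16. Kif1c had -0.28 and 0.18 and the endosome motor Kif16b -0.08 and 0.05, with opposite signs on the arrays. Kif1a, known from axons, was not detected. The scanner software's ratio left this class near 0 as well, with a median of -0.02 and a range from -0.65 for Kif13a to 0.39 for Kif13b.

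Kif1b was read by probes for both of its transcripts, which differ in their 3′ part and encode motors with different tails. The brightest probe, for one transcript, had ratios of -0.41 and -0.18, and a second probe for that transcript had -0.09 and -0.24. The probes for the other transcript had 0.27 and 0.17, and 0.21 and 0.13. The pairs thus lay on opposite sides of 0 on both arrays and did not overlap. The first pair lies at 148551200 to 148552258 and the second at 148610316 to 148611800 on chromosome 4 of mm9. No probe of either pair was called, and a difference between the transcripts was not tested.

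Of the 11 other kinesins, 5 were detected, and their median was -0.42. None was called, which for so few genes is near the background of 5.02%. Kif21b, which restrains the growth of microtubules and is best known from neurons and lymphocytes, was read by a probe at 138074490 to 138074549 on chromosome 1 of mm9. It had levels of 12.78 and 12.91 in B16F1-GFP-D and of 13.74 and 13.60 in B16F1-GFP-M. It was lower on both arrays, with a mean of -0.82 (SD 0.19), the largest decrease of any kinesin, and 4.17% of detected genes lay below it. Its 2 other probes were lower too, by smaller amounts, with means of -0.30 and -0.07. Kif2a, a depolymerase that acts at spindle poles and in interphase cells, was lower with -0.65 and -0.59, and its 2 other probes had means of -0.53 and -0.14. Kif7, a ciliary regulator of Hedgehog signalling, had -0.38 and -0.47, and the microtubule regulator Kif21a had -0.09 and -0.19. Kif24, which restrains the growth of cilia in cycling cells, had 0.06 and 0.07 on its brightest probe. A second Kif24 probe, not well above background in B16F1-GFP-M on array 2, had 0.34 and 0.30, or a mean of 1.35 by the scanner software. Kif6, Kif9, Kif12, Kif26a, Kif26b and Kif27 were not detected.

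Members of the same sequence family differed. Within kinesin-3, Kif14 had a mean of 1.19 while the detected carriers ran from -0.32 for Kif13a to 0.24 for Kif13b. Within kinesin-4, the chromokinesin Kif4 had 1.14, against -0.14 for Kif21a, -0.42 for Kif7 and -0.82 for Kif21b. Within the depolymerases of kinesin-13, Kif2c had 0.88, against 0.07 for Kif24 and -0.62 for Kif2a. In these 3 families the mitotic member was the highest, and the gap to its nearest detected relative exceeded the SD of either gene. Counting Kif2a as mitotic gave that class a median of 1.00 and made it overlap with the transport class. Kif2a lies on chromosome 13, as does Kif13a, and the 441 detected genes of that chromosome had a median of -0.16. The part of the chromosome in their ratios was not tested.

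Genes whose products work with the motors were read from lists. A list of 23 spindle partners, which includes motors outside the Kif numbering, was detected in full. Of it, 12 were called higher, against 3.09% of all detected genes, and 22 were higher on both arrays, against 41.0%. The median was 1.17. Cenpe, the kinesin-7 of the kinetochore, missed the call with 0.89 and 1.00. Kifc1, the kinesin-14 that gathers spindle poles, was called with 1.26 and 1.29, and so was its near copy Kifc5b with 1.24 and 1.17. Their probes may bind each other's RNA, so they count as uncertain separate results.

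Of the partners of called motors, some were called and others were not. Racgap1, the partner of Kif23 in centralspindlin, was called with a mean ratio of 1.26, while Ect2, which binds centralspindlin, had 0.70 and was not. Of the passenger complex that Kif20a carries, Aurkb (1.85), the largest value of the list, and Birc5 (1.33) were called, and the subunits Incenp (0.95) and Cdca8 (0.89) were not. The kinase Plk1 (1.49), which docks on Kif20a and on centralspindlin, was called as well. At the spindle poles, Aurka (1.37), its activator Tpx2 (1.24), Tacc3 (1.46) and Hmmr (1.17) were called, as were the abscission protein Cep55 (1.26) and the checkpoint kinase Bub1 (1.39). Prc1, the partner of Kif4, missed the call with 0.98 and 1.01, as did citron kinase Cit, the partner of Kif14, with 0.66 and 0.90. Numa1, which also serves in the interphase nucleus, had signs that differed between the arrays, 0.24 and -0.22.

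Tubulins form the microtubules on which kinesins act. Of 10 detected tubulins, all were higher on both arrays, against 41.0% of all detected genes, and 7 were called higher, against 3.09%, with a median of 1.19. The called genes were the alpha tubulins Tuba1a (1.68) and Tuba4a (1.19), the beta tubulins Tubb2a (1.20), Tubb4a (1.17), Tubb4b (1.61) and Tubb6 (1.66), and the gamma tubulin Tubg1 (1.15), which nucleates microtubules. Tubulin genes are close in sequence, so probes may bind RNA of more than 1 of them.

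A list of 22 transport partners held adaptors, light chains and other genes, among them the motors Kifc2 and Kifc3, which lie outside the Kif numbering. Of these 22, 21 were detected with a median of -0.08. None was called, against 5.02% of all detected genes, which for a list of this size is near the background. The largest values were those of the scaffold Mapk8ip1, with 1.56 on array 1 and 0.78 on array 2, and of the kinesin light chain Klc1, with 0.35 and 0.84. Dynein and dynactin, which carry cargo the opposite way, had a median of -0.11 over 24 detected genes, with none called, against 5.02% of all detected genes. Their largest values were decreases, those of Pafah1b1, the dynein regulator LIS1 (-0.89 and -0.94), and of the intermediate chain Dync1i1 (-0.91 and -0.81). By the scanner software's ratio Dync1i1 had a mean of -1.77 and was called lower, as it was with an offset of 0.

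**Figure D5:**
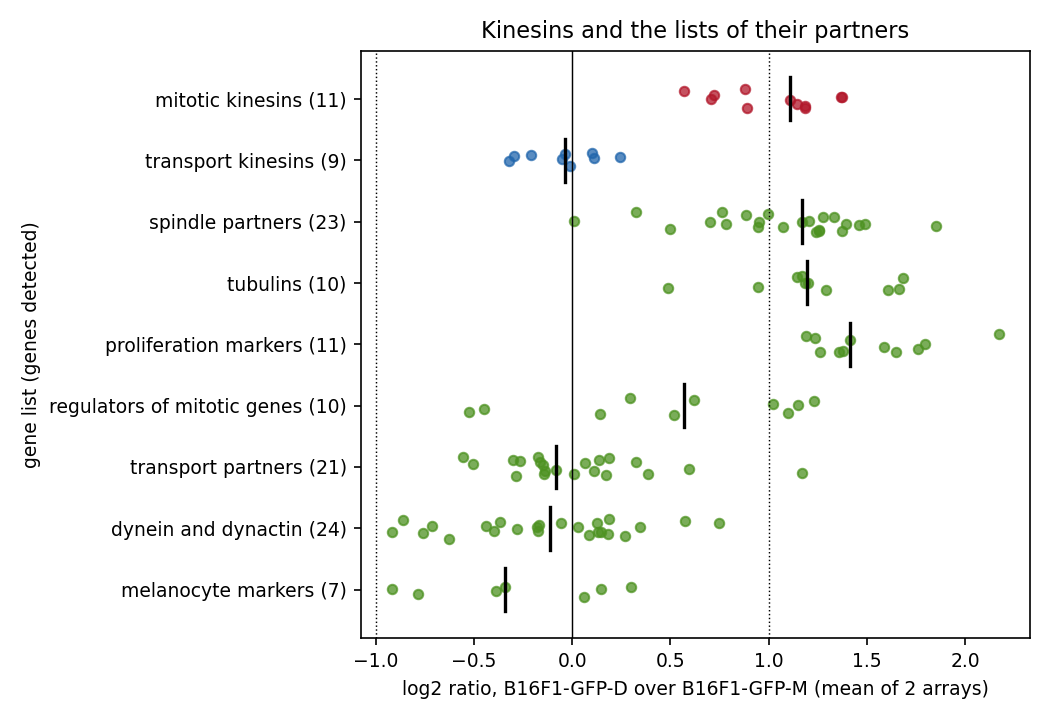
Mean log2 ratio over the 2 arrays of each detected gene in the kinesin classes and in the lists of partners and markers, with the number detected in brackets and black bars at the medians; vertical scatter is for legibility only. The spindle partners, tubulins and proliferation markers lie mainly above 1 with medians of 1.17, 1.19 and 1.41, and the transport partners and dynein lie around 0.

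Markers of proliferation moved with the mitotic kinesins. All 11 of Mki67, Top2a, Ccna2, Ccnb1, Ccnb2, Cdk1, Pcna, Mcm2, Mcm3, Mcm5 and Mcm6 were called higher, against 3.09% of all detected genes, with means from 1.19 for Ccna2 to 2.17 for Mcm3. Their summed intensity was 89874 and 91061 in B16F1-GFP-D and 30328 and 28465 in B16F1-GFP-M on arrays 1 and 2. The authors' cell cycle analysis put a larger share of B16F1-GFP-D than of B16F1-GFP-M cells in G0/G1. The part of the share of cycling cells in the kinesin ratios was not tested. All 7 melanocyte markers were well above background in both lines, with a median ratio of -0.34 and none called. Of the markers of other cells, 1 of 9 for neurons (the tubulin Tubb3), 3 of 7 for fibroblasts, 3 of 6 for leukocytes and 0 of 4 for endothelium were detected. The defining genes Ptprc of leukocytes and Pecam1 and Cdh5 of endothelium were not detected, while the leukocyte markers Cd3e, Cd68 and Lyz2 were. Of the fibroblast and of the leukocyte markers, B16F1-GFP-D had 3 each well above background and B16F1-GFP-M 1 each. None was called, but Pdgfrb (0.83), Col1a1 (0.40) and Cd68 (0.44) were higher on both arrays. By the scanner software's ratio, with means of 4.10, 1.97 and 1.68, all 3 passed 2-fold. Col1a2 (-0.33) and Lyz2 (-0.11) were lower on both arrays, with scanner means of -0.87 and -0.20, and Cd3e differed in sign between the arrays. The part of these markers in the kinesin ratios was not tested.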

How the data were processed

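The authors hybridised RNA of both lines to 2 dye-swapped Agilent arrays and measured them with Agilent Feature Extraction 10.7.3.1. The deposited spot intensities carry no normalization. The deposited log10 ratios and the p-value of each were computed by the authors' scanner software with background and dye corrections of its own. They served as alternatives, as did the deposited series value table of the same log10 ratios. Other cell lines of the study were not analysed here.

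In R 4.3.3 with limma 3.58.1, mean intensities were corrected for local background (normexp, offset 50) and normalised by loess within each array, without scaling between arrays. Of 41174 probes, 41164 had a ratio on both arrays. Levels per line came from Aquantile scaling. RefSeq accessions of the probes were matched to the names of GRCm38.p6 (27198 of 28075 matched). Probe positions are those of the array, on mm9, and no annotation of exons was used. Calls followed a rule of size, at least 2-fold on each array, since 1 replicate per line allows no test. Procedures were tested on simulated data. Members, classes, lists and motifs were chosen with earlier results of these data known. Every kinesin was named, with the partner genes called or, in lists without calls, the 2 largest values. Python 3.11.15 and matplotlib 3.10.9 made tables and figures.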

Additional observations from a re-analysis of the deposited data

How the results depend on the processing

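Ratios were recomputed with other background corrections (an offset of 0, none at all, or the scanner software's), with median centring, from the series value table, with other filters, probes, classes and thresholds, and from each array alone. No transport kinesin was called under any of them, and all 11 detected mitotic kinesins kept a mean ratio above 0 under each. The count of 6 called mitotic kinesins became 3 when the median over all of a gene's probes, detected or not, was taken. It became 0 with median centring or with a 3-fold threshold. The mitotic median, 1.11, was 1.41 with the scanner software's ratio and with the series value table, 1.36 with an offset of 0, 1.00 without the filter on dim probes or with Kif2a counted as mitotic, and 0.88 with the median of probes. The transport median, -0.04, was 0.090 with median centring. The difference of the medians, 1.14, was 1.43 with the scanner ratio and with the series value table, 1.42 with an offset of 0, 1.05 with median centring, 1.04 with no filter or with Kif2a moved, and 0.87 with the median of probes. With each array alone, 6 to 7 mitotic kinesins and 0 transport kinesins were called, the mitotic median was 0.96 to 1.15, the transport median -0.08 to 0.00, and their difference 1.04 to 1.15. The causes of these shifts were not tested, save that the offset by construction draws the ratios of dim spots towards 0. No paired analysis was made because the arrays were counted as a single replicate of either line. The signal over background limits the ratios of dim probes, and the lack of cultures named as replicates limits every value. Of 60 medians of partner lists under the alternatives, 58 kept the sign given in the report; the exceptions were 0.088 for dynein and dynactin with median centring and 0.019 for transport partners on array 2 alone.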
